A study of Homo sapiens with 15 samples.

Results

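Transcripts of 10 secreted cytokine and chemokine genes were followed across 6 groups of U2OS cells: CSF1, GDF15, IL11, LIF, IL6, IL8, CXCL1, CCL2, CCL3 and CCL4. They were taken by gene symbol from an expression table of 23368 genes. All 10 were found, and 8 of them were among the 14298 genes with enough reads to be tested, the exceptions being IL6 and CXCL1. Several of the 10 had been picked because they differed with Nutlin or after release in these same libraries. Their values in those comparisons are therefore descriptions and carry no test.

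U2OS is an established human osteosarcoma line with wild-type p53, and all 6 groups share that genotype. Nutlin, labelled at a dose of 10 and read here as micromolar, blocks MDM2, the ligase that keeps p53 low, and DMSO is its vehicle. There were 3 DMSO and 3 Nutlin libraries of asynchronous cells. Non-released cells, held by thymidine at 2 mM for 16 h, freed for 8 h and blocked for another 16 h, gave 2 and 2. S-phase cells, taken 4 h after release from the same block, gave 3 DMSO and 2 Nutlin libraries. In blocked and S-phase cells Nutlin was added 4 h ahead of the release or of a prolonged block. The labels give no duration of Nutlin for asynchronous cells. They do not say whether replicates came from separate cultures, and the p-values then reflect only how these libraries vary, which may be technical.

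Cytokines are small secreted proteins that signal to neighbouring cells. CSF1 drives the growth and survival of macrophages and of the osteoclasts that resorb bone. GDF15 is a distant relative of TGF-beta that many stressed cells release and that acts on a brainstem receptor, GFRAL. IL11, LIF and IL6 belong to one family that signals through the shared receptor chain gp130, encoded by IL6ST, and then through JAK kinases and STAT3. IL8 and CXCL1 are CXC chemokines that attract neutrophils through CXCR1 and CXCR2. CCL2 attracts monocytes through CCR2, and CCL3 and CCL4, also called MIP-1 alpha and beta, attract monocytes and T cells. Many of these genes are known targets of the transcription factors NF-kB and AP-1, and GDF15 is a known direct target of p53.

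Reads assigned to genes ran from 6.05 to 23.38 M per library, with a median of 15.93 M. Levels below are normalised reads, that is, reads divided by the library's size factor. A gene with 0 reads lies under 1.92 to 7.94 normalised reads depending on the library, a limit of 3 reads that covers counting error only. Differences are on the deposited log2 scale, given with their standard error (SE). That scale is compressed at low reads, so a fold, which is a ratio of mean normalised reads, can be larger than the difference implies. The library labelled DMSO asynchronous replicate 3 goes against its label. It held CDKN1A, a p53 target, at 17534 normalised reads and MDM2 at 27816, against DMSO asynchronous means of 7682 and 13023 that include it and Nutlin asynchronous means of 12007 and 25119.7. It also had 7 of 8 epithelial markers at their highest, their sum being 14704 there and 147 to 270 in the other 14 libraries. DMSO S-phase replicate 2 was the shallowest library. It was the highest of its group for 5 of the 8 tested members, and it held FN1 and COL1A1, genes of the extracellular matrix, at their highest (28138 and 9927 normalised reads). The part of these in the members' values was not tested. Results are given with all 15 libraries and, where it matters, with the 13 other libraries. Of 10 mesenchymal and bone-lineage markers, VIM, SPARC and FN1 were abundant and TWIST1 had no read, with sums of 56718 to 84400.4 over the libraries. The 10 blood-cell markers summed to 79.2 to 165, with CD3E at 0 in every library. Of the 3 blood-cell markers tested, ITGAM rose with Nutlin in S-phase cells (0.71 ± 0.13, limma adjusted p = 0.00988, kept in 18 of 21 alternatives). That call was lost without either Nutlin S-phase library and with only the compared groups fitted. The 4 endothelial markers summed to 22.3 to 97.9. In bulk RNA, fewer cells making a transcript and less transcript per cell cannot be told apart.

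The promoters of members that moved together, or that contrast with each other, are shown from RefSeq on GRCh38.p14. Each runs from 250 bases before the transcription start to 50 after it. The files' own build was hg19, so these coordinates serve only the sequences. The RefSeq table held 6 of the 10 members. IL8 (listed as CXCL8) and IL11 are shown because their levels followed each other closely, with a Pearson r of 0.94 over the 15 libraries. CXCL1 is shown because it lies on chromosome 4 like IL8 and was almost silent. CCL3 is shown for its difference with Nutlin. Capitals mark motif matches, which are the AP-1 motif TGANTCA (either strand), the NF-kB kappaB motif GGGRNNYYCC (either strand) and TATAAA (gene strand only). R stands for A or G, Y for C or T and N for any base. Strings that depart from a pattern are not marked, such as ggaatttcct in the IL8 window. A window without a match may therefore still hold a site.
IL8, chr4:73740319-73740618, plus strand: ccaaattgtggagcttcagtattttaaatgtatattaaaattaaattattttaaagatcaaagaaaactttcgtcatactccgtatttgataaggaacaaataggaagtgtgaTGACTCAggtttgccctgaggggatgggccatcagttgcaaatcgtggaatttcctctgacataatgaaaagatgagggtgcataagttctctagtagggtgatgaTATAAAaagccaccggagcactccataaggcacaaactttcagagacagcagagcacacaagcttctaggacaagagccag
IL11, chr19:55370414-55370713, minus strand: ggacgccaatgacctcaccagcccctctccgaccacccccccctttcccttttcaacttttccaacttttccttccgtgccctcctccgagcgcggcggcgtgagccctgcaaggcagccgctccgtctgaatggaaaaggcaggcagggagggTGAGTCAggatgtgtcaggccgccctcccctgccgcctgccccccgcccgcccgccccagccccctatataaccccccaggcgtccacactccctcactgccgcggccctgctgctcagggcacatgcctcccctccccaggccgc
CXCL1, chr4:73869143-73869442, plus strand: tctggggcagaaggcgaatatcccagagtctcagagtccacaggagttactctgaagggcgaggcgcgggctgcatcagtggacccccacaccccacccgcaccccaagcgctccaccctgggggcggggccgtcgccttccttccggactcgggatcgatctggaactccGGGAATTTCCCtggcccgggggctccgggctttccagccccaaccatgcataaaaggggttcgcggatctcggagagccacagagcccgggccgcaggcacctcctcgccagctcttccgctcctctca
CCL3, chr17:36090094-36090393, minus strand: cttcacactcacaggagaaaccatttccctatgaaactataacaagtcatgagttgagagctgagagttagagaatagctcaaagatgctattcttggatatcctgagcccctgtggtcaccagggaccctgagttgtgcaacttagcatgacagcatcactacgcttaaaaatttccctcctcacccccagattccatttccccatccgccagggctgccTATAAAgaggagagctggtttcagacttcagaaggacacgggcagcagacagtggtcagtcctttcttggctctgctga
An AP-1 match lay 137 bases upstream of the IL8 start and 96 bases upstream of the IL11 start. CXCL1 carried kappaB matches that overlap each other, 79 and 78 bases upstream. TATAAA lay 31 bases upstream of IL8 and 29 upstream of CCL3. The other RefSeq promoters of members, not printed, held a kappaB match in IL6 (73 bases upstream) and a kappaB match and TATAAA in GDF15 (166 and 29 bases upstream). No p53 half-site, searched as RRRCWWGYYY on either strand with W for A or T, was matched in any of these windows. Strings that depart from it were not counted, such as agccatgccc in the GDF15 window, so a site may still be present. Among all 35116 promoters of the same length, 7.71% held the AP-1 motif, 11.3% the kappaB motif, 6.63% the p53 half-site and 7.33% TATAAA. A match is a string of letters and not a measured binding site.

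CSF1 was higher with Nutlin in all 3 states, with no overlap between the groups. In asynchronous cells it stood at 167, 178 and 162 normalised reads with DMSO and at 603, 525 and 521 with Nutlin. Non-released cells had 224 and 271 with DMSO and 751 and 808 with Nutlin. S-phase cells had 191, 318 and 186 with DMSO and 505 and 747 with Nutlin. Each Nutlin library therefore exceeded every DMSO library of any state. The mean ratio was 3.26-fold in asynchronous, 3.15-fold in non-released and 2.7-fold in S-phase cells. The differences were 1.44 ± 0.16 (SE, n = 3 and 3), 1.47 ± 0.20 (n = 2 and 2) and 1.26 ± 0.18 (n = 3 and 2), the last becoming 1.47 ± 0.14 in the 13 libraries. The high DMSO value, 318, came from the shallowest library.

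GDF15 was higher with Nutlin in non-released and S-phase cells, and in asynchronous cells the comparison turned on 1 library. In asynchronous cells it stood at 94.1, 81.0 and 3421 normalised reads with DMSO and at 542, 467 and 529 with Nutlin. The value of 3421, the highest of all 15, is that of DMSO asynchronous replicate 3. Non-released cells had 236 and 304 with DMSO and 957 and 1166 with Nutlin. S-phase cells had 209.8, 212 and 305 with DMSO and 819.9 and 1151 with Nutlin. The groups did not overlap in non-released or S-phase cells, where the ratios were 3.93-fold and 4.07-fold. In asynchronous cells they overlapped. With all libraries the mean with Nutlin was 0.428 times that with DMSO (513 and 1199 normalised reads), while the difference of log2 means was 0.48 ± 0.85, of the opposite direction. In the 13 libraries they were 5.85-fold and 2.03 ± 0.15. That library sets the SE in every comparison of GDF15, since all groups share 1 spread per gene. The SE was 1.04 for non-released cells in 15 libraries and 0.17 in 13, around the same difference of 1.78.

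The gp130 family held both LIF, the member with the most reads per length, and IL6, nearly undetected. LIF, which keeps stem cells undifferentiated and acts on bone cells, stood at 2962, 3282 and 2854 normalised reads in DMSO asynchronous cells and at 4127, 3832 and 3642 with Nutlin. Non-released cells had 1697 and 1771 with DMSO and 2330.1 and 2652 with Nutlin. S-phase cells had 3108, 4430.3 and 3515 with DMSO and 2988 and 4908 with Nutlin. LIF was thus lowest in the blocked DMSO cells. Nutlin and DMSO overlapped only in S-phase cells, where LIF differed by 0.07 ± 0.18, and the sign there turned when single libraries were left out (-0.28 to 0.42). The release difference, S-phase minus non-released, was 1.05 ± 0.18 with DMSO (2.12-fold) and 0.61 ± 0.19 with Nutlin (1.58-fold).

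IL11, known for its part in bone turnover and fibrosis, had its highest levels in S-phase cells. It stood at 785, 482 and 301 normalised reads in DMSO asynchronous cells, and at 949, 538 and 492 with Nutlin. Non-released cells had 358 and 303 with DMSO and 561 and 633 with Nutlin. S-phase cells had 1439, 1858 and 1355 with DMSO and 1924 and 3194 with Nutlin. All 5 S-phase libraries exceeded the 10 others. S-phase cells had 4.69 times the reads of non-released cells with DMSO and 4.28 times with Nutlin, differences of 2.05 ± 0.32 and 1.96 ± 0.35. Nutlin groups lay above DMSO groups without overlap in non-released (0.76 ± 0.35) and S-phase cells (0.67 ± 0.32), and overlapped them in asynchronous cells (0.34 ± 0.29, and 0.03 ± 0.24 in the 13 libraries).

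IL6, the founding member of the family and a major driver of the acute-phase response, was barely detected, with 87 reads over all libraries and 1 to 13 in each. Its highest levels were 13.2 and 12.9 normalised reads, both in DMSO S-phase cells, and its lowest, 1.6, in a Nutlin S-phase library that held 1 read. DMSO non-released cells had 3.2 and 2.6, and DMSO S-phase cells 6.6, 13.2 and 12.9, with no overlap. No test was made for it at this depth.

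IL8 had its 4 highest libraries in S-phase cells. In asynchronous cells it stood at 138, 30.4 and 27.4 normalised reads with DMSO and at 154, 80.6 and 62.0 with Nutlin. Replicate 1 was the highest library of both arms. Non-released cells had 34.7 and 26.9 with DMSO and 81.8 and 127 with Nutlin. S-phase cells had 162, 214 and 133 with DMSO and 244 and 271 with Nutlin. The ratio after release was 5.5-fold with DMSO (1.51 ± 0.35) and 2.47-fold with Nutlin (1.01 ± 0.38). Nutlin exceeded DMSO without overlap in non-released cells, by 3.38-fold, and in S-phase cells, by 1.52-fold.

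CXCL1, which shares the IL8 receptor CXCR2, had 1 read in 1 of the 15 libraries, a DMSO asynchronous one. Of its 1247 stretches of 50 bases, the read length, 60 (4.81%) are identical in its relative CXCL2, so a few of its reads could have been set aside as ambiguous. CXCL2 itself had 1 read, and CXCL3 had 114.

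**Figure D1:**
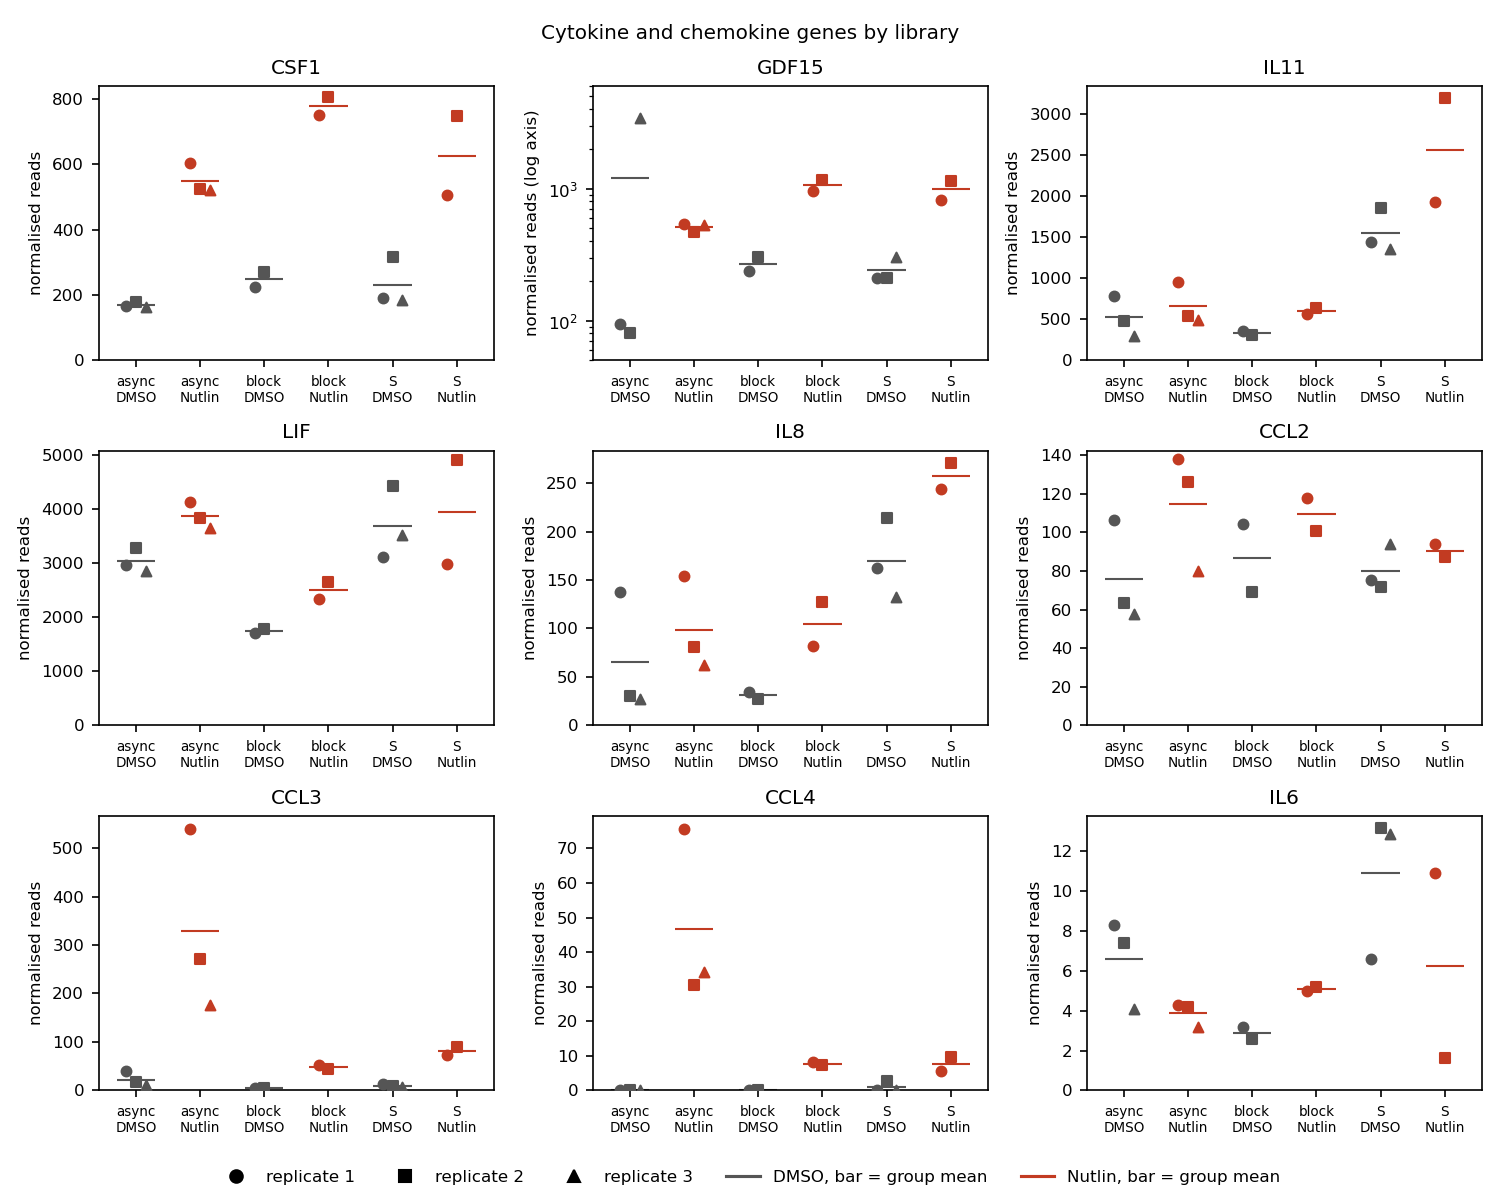
Normalised reads of 9 members in every library, by group along the x axis (GDF15 on a log axis, the others on linear axes). Each point is 1 library, its marker shows the replicate number and the bar is the group mean. CXCL1 is left out, having 1 read in all. The single DMSO asynchronous point of GDF15 at 3421 lies above all others, and IL11 is highest in the 5 S-phase libraries.

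Among the CC chemokines, CCL3 was higher with Nutlin in all 3 states. It stood at 39.3, 16.6 and 10.1 normalised reads in DMSO asynchronous cells and at 539.8, 271 and 176 with Nutlin. Non-released cells had 3.9 and 5.1 with DMSO and 52.5 and 43.0 with Nutlin. S-phase cells had 12.4, 7.9 and 5.9 with DMSO and 72.3 and 90.3 with Nutlin. All 7 Nutlin libraries lay above all 8 DMSO libraries. CCL3 and CCL4 are typical products of blood cells, and the 10 blood-cell markers summed to 79.2 to 138 in DMSO and 104 to 136 in Nutlin asynchronous cells. In non-released cells the sums were 90.5 to 104 and 91.2 to 163, and in S-phase cells 106 to 129 and 118 to 165. Their part in the result was not tested. The ratios were 14.9-fold in asynchronous, 10.5-fold in non-released and 9.29-fold in S-phase cells. On the compressed log2 scale the differences were 2.45 ± 0.27, 1.17 ± 0.33 and 1.42 ± 0.30. From recovered reads (voom, a limma method for counts) they were 4.01, 3.27 and 3.13.

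CCL4 was found almost only in Nutlin libraries. In asynchronous cells it had 0 reads in each of 3 DMSO libraries and stood at 75.6, 30.6 and 34.2 normalised reads with Nutlin. Non-released cells had 0 and 0 with DMSO and 8.1 and 7.4 with Nutlin. S-phase cells had 0, 2.6 and 0 with DMSO, the 2.6 being 1 read, and 5.5 and 9.7 with Nutlin. Set against 3 reads in each DMSO library, the mean with Nutlin was at least 15.7-fold higher in asynchronous and at least 3.61-fold higher in non-released cells. Over all libraries CCL4 had 188 reads, of which 1 came from a DMSO library. It entered the test only through the 3 Nutlin asynchronous libraries.

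CCL3 and CCL4 have near-identical copies, and the 4 copies in the table (CCL3L1, CCL3L3, CCL4L1 and CCL4L2) had no read in any library. In GENCODE v29 transcripts, 76 of 1543 stretches of 50 bases in CCL3 (4.93%) are identical in CCL3L1 and 216 of 2130 in CCL4 (10.1%) in CCL4L2. The labels do not say how counting treated reads that fit both, so the split between gene and copy is uncertain.

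CCL2, the monocyte attractant, had a narrow range, from 57.9 to 138 normalised reads. It stood at 107, 63.5 and 57.9 normalised reads in DMSO asynchronous cells and at 138, 126 and 80.1 with Nutlin. Non-released cells had 104 and 69.3 with DMSO and 118 and 101 with Nutlin. S-phase cells had 75.2, 71.5 and 94.0 with DMSO and 94.1 and 87.1 with Nutlin. The groups overlapped in all 3 Nutlin comparisons, which gave differences of 0.40 ± 0.17, 0.24 ± 0.21 and 0.12 ± 0.19. Between libraries of the same state and number, Nutlin was the higher each time, by 1.13-fold to 1.99-fold. No label ties these numbers.

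With Nutlin, 4 of the 8 tested members stood above DMSO without overlap in asynchronous cells (CSF1, LIF, CCL3 and CCL4), 7 in non-released cells (all but CCL2) and 6 in S-phase cells (CSF1, GDF15, IL11, IL8, CCL3 and CCL4). Of all tested genes, 8.49%, 20% and 13.8% stood above DMSO without overlap in the same comparisons. By limma, a stricter rule, 2.45%, 0.916% and 2% of them were called in either direction at an adjusted p under 0.05. The members were partly picked on these same comparisons, so nothing is read from their counts. The median difference of the 8 tested members was 0.49, 0.88 and 0.62, beside -0.02, -0.02 and -0.01 over all tested genes. After release, IL11, LIF, IL8 and CCL3 were higher without overlap both with DMSO and with Nutlin, 4 of the 8 tested members in each arm. Of all tested genes 17.7% and 27.8% were. With Nutlin, CSF1 and CCL2 were lower without overlap, by 0.32 ± 0.20 and 0.18 ± 0.21, as were 24.4% of all tested genes. By limma 6.99% of all tested genes were called after release with DMSO and 2.43% with Nutlin. Nothing is read from these counts either. The DMSO and Nutlin comparisons of a given state share libraries with the comparisons between states, so the values are given side by side only.

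**Figure D2:**
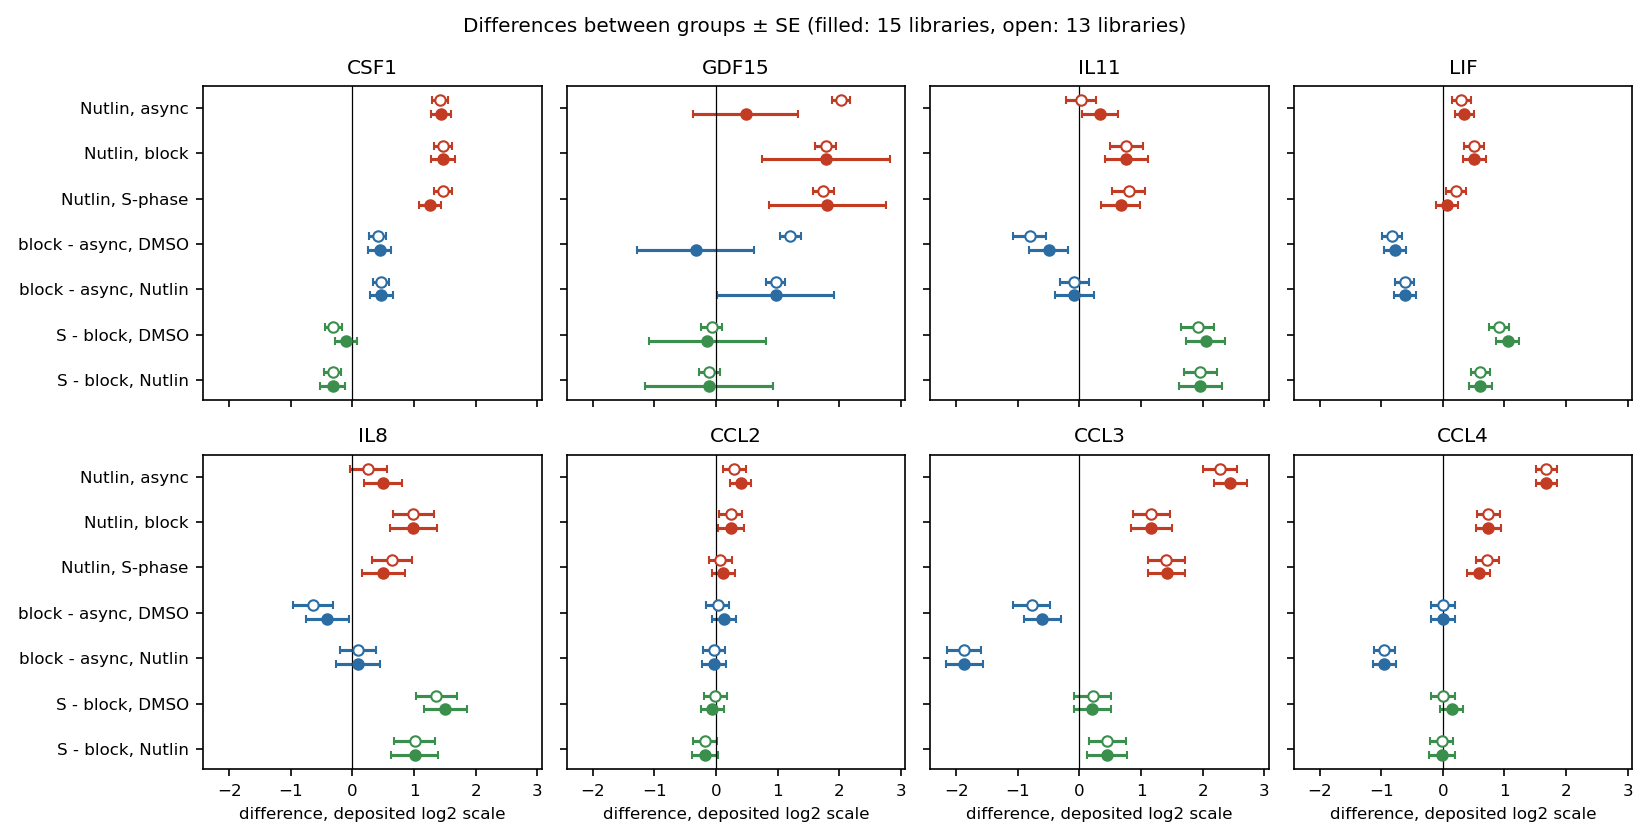
Differences of the 8 tested members in 7 comparisons, on the deposited log2 scale (x axis), with bars of 1 SE. Filled points use all 15 libraries and open points the 13 without DMSO asynchronous replicate 3 and DMSO S-phase replicate 2. The 2 sets of points stand far apart for GDF15 in asynchronous cells, at 0.48 and 2.03.

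The comparison of non-released with asynchronous cells asks how these transcripts differ under the thymidine block. In the Nutlin arm the duration of Nutlin is not given for asynchronous cells. Block and duration of Nutlin therefore cannot be told apart in that arm. The comparison was not one the members were picked on, but it shares libraries with those that were. A member picked for a high value after release is more likely to look low under the block, and one picked for its Nutlin difference in asynchronous cells to look low in the Nutlin arm and high in the DMSO arm. The p-values below are therefore not independent of the choice. The block itself was visible in cell-cycle genes. All 5 G2 and mitosis genes fell in DMSO cells, led by CDC20 (-1.26 ± 0.13, limma adjusted p = 1.82e-05), and 4 of 5 G1/S genes rose, led by CCNE2 (1.40 ± 0.13, limma adjusted p = 1.46e-05). With Nutlin 4 of 5 fell and 5 of 5 rose.

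LIF fell under the block in both arms. With DMSO it was 1.75-fold lower (-0.78 ± 0.18, limma adjusted p = 0.00396), and the call held in all 22 alternative analyses, with adjusted p from 0.000744 to 0.0374. With Nutlin it was 1.55-fold lower (-0.62 ± 0.18, limma adjusted p = 0.0143). That call was lost with no filter on low values (adjusted p = 0.051) and without Nutlin non-released replicate 1 (-0.53, adjusted p = 0.124). With Nutlin CCL3 was 6.89-fold lower under the block (-1.87 ± 0.30). The asynchronous Nutlin libraries form the high group here, and the Nutlin difference of CCL3 was largest in that state (2.45 ± 0.27). CCL3 may have been picked on those values, so its p is not given. With DMSO CCL3 did not pass (-0.60 ± 0.30, limma adjusted p = 0.14), though it did without Nutlin asynchronous replicate 1 (-0.60 ± 0.21, adjusted p = 0.0415). It stood at 22 ± 15.3 (SD, n = 3) and 4.54 ± 0.838 (SD, n = 2) normalised reads. CCL4 with Nutlin was 6.04-fold lower under the block, at 46.8 ± 25.0 (SD, n = 3) and 7.75 ± 0.468 (SD, n = 2) normalised reads. Since it passed the filter only through the higher of these groups, its p is not given. It could not be compared with DMSO, having no read in either group.

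By the limma fit of the deposited values in all 15 libraries, the other members did not pass in either arm. CSF1 was higher without overlap with both DMSO (0.44 ± 0.18, limma adjusted p = 0.0814) and Nutlin (0.47 ± 0.18, limma adjusted p = 0.0633). In the 13 libraries it passed in both arms, with adjusted p of 0.0252 and 0.00785. It also passed by voom on all 15 libraries (voom adjusted p = 0.045 and 0.0249). Fitting only the compared groups, it passed too (limma adjusted p = 0.0454 and 0.000893). Of 22 alternatives, 4 called it with DMSO and 6 with Nutlin. GDF15 differed by -0.33 ± 0.95 with DMSO (limma adjusted p = 0.818). Without DMSO asynchronous replicate 3 the direction turned to 1.21 ± 0.18, with an adjusted p of 0.000279. That library was set apart by its p53 targets, of which GDF15 is one, so this value is no independent test. With Nutlin GDF15 differed by 0.97 ± 0.95 (limma adjusted p = 0.459) in 15 libraries and by 0.97 ± 0.15 (adjusted p = 0.000148) in 13. IL11 differed by -0.50 ± 0.32 with DMSO (limma adjusted p = 0.254), and by -0.81 ± 0.27 (adjusted p = 0.0224) in the 13 libraries. With Nutlin it differed by -0.08 ± 0.32 (limma adjusted p = 0.873). IL8 differed by -0.41 ± 0.35 and 0.09 ± 0.35 (limma adjusted p = 0.402 and 0.867), and CCL2 by 0.13 ± 0.19 and -0.03 ± 0.19 (limma adjusted p = 0.629 and 0.917). The member called was thus LIF, with DMSO and with Nutlin. CCL3 with Nutlin is left out, since it may have been picked on the high group of that comparison. CCL4 is left out, since its call follows from how it entered the test. Members were partly picked on comparisons that share these libraries, so nothing is read from the number called. Calls were common under the block, at 33.9% of all tested genes with DMSO and 34.5% with Nutlin in 15 libraries, and 47.8% and 49.9% in 13.

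Levels of different genes were compared per kb of exon sequence (GENCODE v29), over group means. In DMSO asynchronous cells LIF led with 764 normalised reads per kb, followed by IL11 at 196, CCL2 at 38.3, CSF1 at 31.2, IL8 at 28.6, CCL3 at 14.7 and IL6 at 3.17. Among CCL2, CSF1, IL8 and CCL3, genes next to each other in this order did not differ beyond the spread of the libraries. GDF15 is left out of this order because its mean rests on 1 library. In Nutlin S-phase cells LIF (995) and IL11 (958) stood together at the top, within the spread of their libraries. GDF15 followed at 472, CSF1 at 115, IL8 at 113, CCL3 at 54.4, CCL2 at 45.6 and CCL4 at 3.72, and CSF1 and IL8 lay within the spread of their libraries. In Nutlin asynchronous cells CCL3 reached 220.2 per kb, above CSF1 at 101.

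Over the 13 libraries, the members' deposited values fell into pairs. CCL3 and CCL4 had a Pearson r of 0.96, CSF1 and GDF15 of 0.93 and IL11 and IL8 of 0.92. Over all 15 libraries CSF1 and GDF15 had 0.49, and the other pairs 0.95 and 0.94. CSF1 and IL11 had 0.19 over 13 libraries and 0.25 over 15, and the highest r of CCL2 was with CCL3, at 0.6 and 0.64. The libraries of a group share their treatment and state, so these are descriptions of 6 group patterns, with no p. The genes on chromosome 17 were CCL2, CCL3 and CCL4, of which CCL2 did not follow the others as closely. GDF15 and IL11, both on chromosome 19, had 0.34 over 13 libraries and -0.03 over 15.

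**Figure D3:**
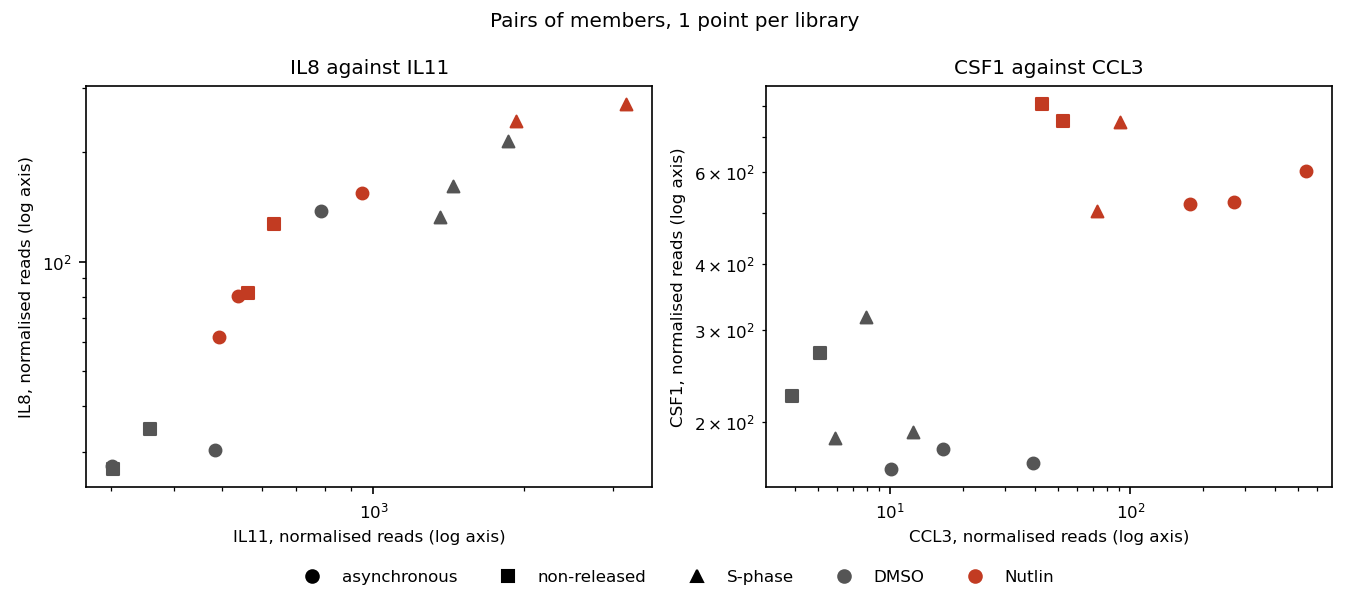
Normalised reads of IL8 against IL11 and of CSF1 against CCL3, on log axes, with 1 point per library, shapes for the 3 states and colours for DMSO and Nutlin. The 5 S-phase libraries hold the upper end of IL11, and in the other panel the 7 Nutlin libraries lie above and to the right of the 8 DMSO libraries.

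The genes most like each member were found by Pearson r over 13 libraries among all tested genes, with r over all 15 beside it. For CSF1 these were KIAA0247 (0.985, 0.973), TMEM63B (0.983, 0.934) and RNF19B (0.981, 0.94). GDF15 was followed by TP53I3, a p53 target (0.996, 0.763), EPS8L2 (0.987, 0.802) and TM7SF3 (0.985, 0.68). For IL11 they were the protocadherin PCDH7 (0.964, 0.966), the complement regulator CD55 (0.961, 0.845) and RCSD1 (0.959, 0.924). RCSD1 was also among those of IL8 (0.954, 0.924), with IL1RAPL1 (0.959, 0.963) and PMEPA1 (0.953, 0.896). LIF was followed by the semaphorin SEMA7A (0.969, 0.97), TRIM8 (0.963, 0.908) and SPRED2 (0.952, 0.812). CCL3 was followed by BTBD10 (0.962, 0.935), GALNT10 (0.962, 0.923) and CCL4 (0.962, 0.948). For CCL4 they included CCL3 and PRKX (0.943, 0.803). CCL2 had the weakest, C14orf118 (0.805, 0.418), NFX1 (0.798, 0.359) and RNF13 (0.78, 0.257).

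Other ligands were counted from lists that hold no member. Of 39 other chemokine genes, 18 had no read in any library and 7 were tested. None was called with Nutlin in any state or after release in 15 libraries. In the 13 libraries 1 rose after release in each arm, where 14.2% and 10.8% of all tested genes were called. Under the block 3 of 7 rose in both arms and none fell, beside 33.9% and 34.5% of all tested genes called. In the 13 libraries 3 rose in both arms and 1 fell with DMSO, beside 47.8% and 49.9%. CCL26, an eosinophil attractant, rose by 1.29 ± 0.21 with DMSO (limma adjusted p = 0.000438) and 1.26 ± 0.21 with Nutlin (limma adjusted p = 0.000507), in all alternatives. CX3CL1, which is made as a membrane-bound ligand, rose by 0.98 ± 0.22 and 0.75 ± 0.22 (limma adjusted p = 0.00382 and 0.0172), the second kept in 18 of 22 alternatives. The second was lost without either Nutlin non-released library. CXCL14 rose by 0.80 ± 0.22 and 0.82 ± 0.22 (limma adjusted p = 0.0118 and 0.00979), lost without replicate 1 of the non-released group in either arm (adjusted p = 0.104 and 0.168).

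Among 62 other interleukins, colony-stimulating factors and TNF-family ligands, 18 were tested and TNF itself had no read. With Nutlin 4 rose in asynchronous, 1 in non-released and 3 in S-phase cells, and none fell. Of all tested genes 2.45%, 0.916% and 2% were called in these 3 states. TNFSF4, which encodes the T-cell co-stimulator OX40 ligand, rose in all 3, by 0.91 ± 0.15, 0.86 ± 0.18 and 1.30 ± 0.17 (limma adjusted p = 0.00319, 0.0407 and 0.00068). Its call in non-released cells held in 9 of 21 alternatives. TNFSF9, the 4-1BB ligand, rose by 0.78 ± 0.12 in asynchronous and 0.73 ± 0.13 in S-phase cells (limma adjusted p = 0.00195 and 0.00928), the latter kept in 20 of 22 alternatives and lost without Nutlin S-phase replicate 2 (0.62, adjusted p = 0.135). Under the block 5 of 18 rose and 2 fell in each arm, beside 33.9% and 34.5% of all tested genes called. CD70 rose (1.38 ± 0.16 with DMSO, limma adjusted p = 5.08e-05, and 1.11 ± 0.16 with Nutlin, limma adjusted p = 0.000241). IL24, a cytokine of the IL-10 family, fell by 1.74 with DMSO and fell by 1.82 with Nutlin (limma adjusted p = 6.41e-05 and 4.78e-05), and IL32 fell by 1.06 and fell by 1.1. After release IL24 rose by 1.98 ± 0.21 with DMSO and 1.91 ± 0.23 with Nutlin (limma adjusted p = 9.33e-05 and 0.00045). TNFSF15 rose by 1.5 ± 0.17 with DMSO (limma adjusted p = 0.000164). CSF2, or GM-CSF, rose by 0.96 ± 0.18 there (limma adjusted p = 0.00583), lost without DMSO non-released replicate 2 (0.85, adjusted p = 0.103). In DMSO cells 3 of the 18 rose and 1 fell after release, and with Nutlin 2 rose and none fell. Of all tested genes 6.99% and 2.43% were called there.

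Of 33 other TGF-beta family ligands, the wider family of GDF15, 16 were tested. In 15 libraries none was called with Nutlin or after release. Under the block 3 rose in each arm, beside 33.9% and 34.5% of all tested genes called. In the 13 libraries 1 fell with Nutlin in non-released cells and 2 fell after release with DMSO, beside 3.2% and 14.2%. Under the block 6 rose and 2 fell there with DMSO, and 6 rose and 1 fell with Nutlin, beside 47.8% and 49.9%. GDF11 rose with DMSO (0.47 ± 0.09, limma adjusted p = 0.00155) in all alternatives, and BMP4 rose with Nutlin (0.82 ± 0.21, limma adjusted p = 0.00833), lost without Nutlin non-released replicate 1 (0.79, adjusted p = 0.0651).

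Of 14 receptors of the members, those of the gp130 ligands were present in every library. LIFR stood at 2663 to 3362 and IL6ST at 3549 to 5827 normalised reads over the libraries, IL11RA at 68.4 to 169.6 and IL6R at 109 to 257. Most others were near 0. CXCR1 had no read, GFRAL and CCR2 had 1 read each, and CSF1R, the receptor of CSF1, stood at 1.84 to 15.9. RET, the co-receptor of GFRAL, reached 72.1 in DMSO asynchronous replicate 3 and at most 13.1 elsewhere. Of 6 tested, none was called with Nutlin or after release. IL11RA rose under the block with DMSO (0.77 ± 0.13, limma adjusted p = 0.000683) and with Nutlin (0.72 ± 0.13, limma adjusted p = 0.00107), in all alternatives. IL6ST fell by 0.38 and by 0.47 (limma adjusted p = 0.0268 and 0.00908), calls kept in 18 and 21 of 22 alternatives, and IL6R fell by 0.39 and by 0.48 (limma adjusted p = 0.0367 and 0.0146), kept in 15 and 20 of 22. The DMSO call of IL6R was lost in the 13 libraries and without DMSO asynchronous replicate 3, where IL6R was highest (257 normalised reads). LIFR was not called in any comparison.

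All 15 JAK-STAT genes below gp130 were tested. STAT3, which gp130 ligands activate, rose with Nutlin in asynchronous cells (0.47 ± 0.08, limma adjusted p = 0.00417, in all alternatives) and in non-released cells (0.50 ± 0.10, limma adjusted p = 0.0227). The latter was lost when any 1 of the 4 non-released libraries was left out. The phosphatase gene PTPN11 fell under the block by 0.60 with DMSO and by 0.62 with Nutlin (limma adjusted p = 0.000502 and 0.0004). Under the block 1 of 15 rose and 1 fell in each arm, beside 33.9% and 34.5% of all tested genes called. None of the 15 was called after release.

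NF-kB subunits, kinases and feedback genes moved together across the block. Of 19 tested, 13 fell with DMSO and 11 with Nutlin, and none rose, with medians of -0.58 and -0.57. The shares of all tested genes called there, in either direction, were 33.9% and 34.5%. TRAF1, an adaptor of TNF receptors, fell by 2.01 and by 1.88 (limma adjusted p = 2.32e-05 and 3.46e-05). TNFAIP3, the A20 feedback inhibitor, fell by 1.12 and by 1.23 (limma adjusted p = 5.65e-05 and 3.14e-05), and NFKB1 by 0.75 and by 0.74 (limma adjusted p = 0.000223 and 0.000247). These 3 genes were called in all alternatives. After release 8 of 19 rose with DMSO and none fell, among them TNFAIP3 (0.92 ± 0.13, limma adjusted p = 0.00109) and BIRC3 (1.30 ± 0.19, limma adjusted p = 0.00117). With Nutlin 1 of 19 rose after release in 15 libraries and 9 in 13, the median being 0.32 in both. Of all tested genes 6.99% were called after release with DMSO and 2.43% with Nutlin in 15 libraries, and 14.2% and 10.8% in 13. TNFAIP3 also rose with Nutlin in asynchronous cells (0.79 ± 0.12, limma adjusted p = 0.002), and 2 of 19 rose with Nutlin in asynchronous and in non-released cells. With Nutlin in S-phase cells none was called in 15 libraries and 1 rose in 13, where 3.9% of all tested genes were called.

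Of 14 AP-1, C/EBP and immediate early genes, 12 were tested. FOSL1, an AP-1 subunit, fell under the block with DMSO (-1.31 ± 0.25, limma adjusted p = 0.00129) in all alternatives. It rose after release (1.22 ± 0.25, limma adjusted p = 0.00884), lost without either DMSO non-released library (adjusted p up to 0.125). ATF3, a stress-induced factor, rose with Nutlin in all 3 states, by 1.16 ± 0.14, 1.07 ± 0.17 and 1.18 ± 0.15 (limma adjusted p = 0.000224, 0.00584 and 0.000748), the second kept in 19 and the third in 21 of 22 alternatives. The second was lost without either Nutlin non-released library and without DMSO non-released replicate 1. FOS rose under the block with Nutlin (1.76 ± 0.17, limma adjusted p = 1.22e-05). Under the block 3 of 12 rose and 3 fell with DMSO, and 6 rose and 1 fell with Nutlin. Of all tested genes 33.9% and 34.5% were called there. After release 3 rose and 1 fell with DMSO, and none rose and 3 fell with Nutlin, beside 6.99% and 2.43%. Of 16 factors of cytokine mRNA decay and stability, ZC3H12A, which encodes the nuclease Regnase-1, fell under the block with DMSO by 0.66 (limma adjusted p = 0.000903) and rose after release (0.93 ± 0.12, limma adjusted p = 0.00034). It was called in all alternatives in both. Under the block 1 of 16 rose and 5 fell with DMSO, and 1 rose and none fell with Nutlin. In the 13 libraries 1 rose and 8 fell with DMSO, and 2 rose and 6 fell with Nutlin. The median with Nutlin was -0.21 in both sets. Of all tested genes 33.9% and 34.5% were called there in 15 libraries, and 47.8% and 49.9% in 13. Between Nutlin and DMSO none was called in any state in 15 libraries, and 1 was higher with Nutlin in non-released cells in 13. Whether these factors act on the members was not tested.

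**Figure D4:**
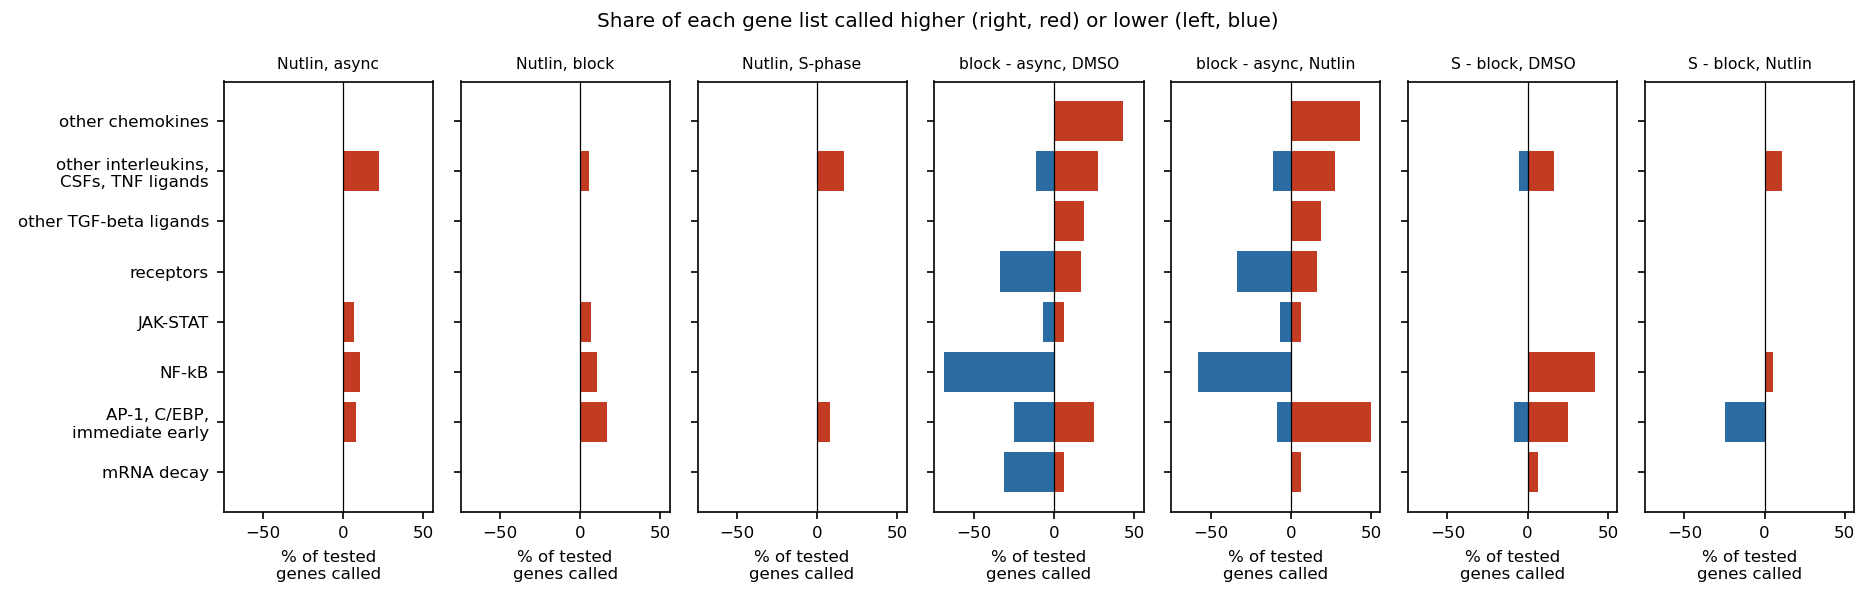
Share of the tested genes of 8 lists called higher (right) or lower (left) in 7 comparisons, in percent (x axis), by limma at an adjusted p under 0.05. The NF-kB list reaches 13 of 19 genes lower under the block with DMSO and 8 of 19 higher after release.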

How the data were processed

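Per the labels' protocols, 15 U2OS libraries were made with a TruSeq kit from 1000 ng of RNA and sequenced to 50 nt from 1 end. The values are variance-stabilised log2 values, deposited by the authors in 1 table. CASAVA 1.8.2, TopHat 0.9 and HTSeq, with the build hg19 and DESeq2 1.10.1, are listed per the submitters' processing notes, with no role. Strand setting and annotation are not given in the sources used here. A lowest value of 4.8587 is that of 0 reads. Reads were recovered by inverting the transformation, and at least 99.61% of values under 1000 reads lay within 0.05 of a whole read in each library.

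The test was that of limma 3.58.1 (R 4.3.3) on the deposited values, with 1 mean per group over 15 libraries and eBayes with a trend, two-sided, adjusted by Benjamini and Hochberg over 14298 genes with at least 2 libraries 1 unit above the lowest value. A call is an adjusted p under 0.05. The code was tested on simulated data. Members and gene lists were chosen with earlier results of these data known, as was the choice of the 2 libraries to leave out. All 10 members are named. Other named genes were drawn from the up to 4 called genes of smallest p per list and comparison, not all of which are printed, and from the 3 genes of highest r per member. A few genes are not reported here. The lists were blood, epithelial, endothelial and mesenchymal markers, other chemokines, copies of members, other interleukins and related ligands, TGF-beta ligands, receptors, JAK-STAT, NF-kB, AP-1, mRNA decay, and G2 and G1/S genes. Among the markers, VWF rose under the block with DMSO (kept in 20 of 21 alternatives) and with Nutlin (13 of 21). The latter was lost without either Nutlin non-released library. SPP1 rose with DMSO (16 of 21), lost without DMSO asynchronous replicate 3 and without either DMSO non-released library. Alternatives left out each library, changed the filter, used voom on recovered reads, fitted only the compared groups, added the replicate number as a block or dropped the trend. Many left out a library of a group not compared, so a call kept in most can still be lost without a compared library.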

Additional observations from a re-analysis of the deposited data

Results flagged for a closer look

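IL6 stood apart in that its libraries moved in opposite directions under the block in the DMSO and Nutlin arms, with no overlap in either. On the deposited log2 scale it differed by -0.22 with DMSO and by 0.08 with Nutlin, and these differ by 0.3. The difference was not tested. IL6 had 8 and 8 reads in DMSO asynchronous replicates 1 and 2, 4 in replicate 3, and 4 and 4 in DMSO non-released cells. Replicate 3 is therefore kept apart from the non-released libraries only by size factors, of 0.985 against 1.27 and 1.56. Differences of so few reads cannot be told from counting error. With Nutlin it had 6, 3 and 3 reads in asynchronous and 5 and 7 in non-released cells.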

How the results depend on the processing

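Numbers of genes called moved with the libraries used more than the members' values did. Fitting only the compared groups gave 202 calls for Nutlin in asynchronous cells (351 with all groups), 637 in non-released (131), 99 in S-phase (286), 7809 for the block with Nutlin (4933), and 335 and 737 for release with DMSO and Nutlin (1000 and 348). In the 13 libraries the calls were 888, 459 and 563 for Nutlin in the 3 states, and 2028 and 1542 for release. With voom, Nutlin in non-released cells gave 227. Leaving out 1 library at a time gave 170 to 525, 22 to 274 and 88 to 466 calls for Nutlin in the same order of states, 2400 to 5850 and 2572 to 6001 for the block with DMSO and Nutlin, and 233 to 1410 and 71 to 663 for release. Apart from voom, which used all 15 libraries, these fits held fewer libraries, and the cause was not tested.

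Among members, signs turned where differences were small or rested on 1 library. For the block with DMSO, GDF15 turned to 1.21 in the 13 libraries and to 0.24 with the replicate block, and ranged from -1.14 to 1.21 without single libraries, IL8 from -0.64 to 0.04 and CCL2 from -0.06 to 0.32. For the block with Nutlin, IL8 turned to -0.09 with the replicate block and ranged from -0.13 to 0.35, IL11 from -0.24 to 0.19 and CCL2 from -0.20 to 0.07. GDF15 with Nutlin in asynchronous cells ranged from -0.33 to 2.03, and LIF in S-phase cells from -0.28 to 0.42. After release with DMSO, CSF1 ranged from -0.31 to 0.01, GDF15 from -0.29 to 0.01 and CCL2 from -0.26 to 0.13, and with Nutlin GDF15 from -0.34 to 0.12 and CCL4 from -0.12 to 0.08. CCL3 and CCL4 left the test under the stricter filter. Of 114 calls of list genes that could be named, 58 held in every alternative.

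Same-numbered libraries of compared groups had residual correlations from -0.009 to 0.351, with 13 of 15 values over 0.1. Between DMSO and Nutlin asynchronous cells they were 0.313, 0.136 and 0.074 for replicates 1, 2 and 3. The last pair holds the DMSO library that goes against its label. Of 6 asynchronous libraries, 4 correlated best with their own number. Pairing was accepted only if every pair exceeded 0.1, so the reported values use no replicate block, though most pairs passed that limit. With the block, CCL3 passed for the block with DMSO (-0.78, adjusted p = 0.0227). With the replicate block 397, 166 and 324 genes were called with Nutlin in the 3 states, 4985 and 5168 for the block and 1347 and 450 for release. Depth limits IL6 (1 to 13 reads per library), CXCL1 and the DMSO levels of CCL4, for which differences of a few reads were not detectable.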
